A study of Rattus norvegicus with 19 samples.

Results

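The Prox1 locus on rat chromosome 13 was described through the 20 transcriptionally active putative enhancers (TAPEs) that the authors paired with this gene, out of 27538 TAPEs in all. Every TAPE whose center lay up to 1 Mb from the Prox1 transcription start site was included, whatever its level. A TAPE is a stretch of open chromatin outside genes that gives RNA from both DNA strands, and its RNA is a candidate enhancer RNA (eRNA). RNA was measured by total RNA-seq in 19 libraries from primary neuron cultures of Sprague-Dawley rat embryos, grown from cortex, hippocampus or striatum of embryonic day 18 and taken at day 11 in vitro. Each culture type received vehicle (Neurobasal medium) or KCl, which depolarizes neurons, for 1 h, in 3 libraries per group and 4 for striatum with vehicle. The sample labels give 25 mM KCl and the series text gives 10 mM. The tissue entry of the third cortex vehicle library names striatum, while its title names cortex, and it was kept as cortex. These are mixed dissociated cultures of whole regions, so hippocampal cultures hold dentate, CA and non-neuronal cells together, and more cells of a type cannot be told apart from more RNA per cell. The study's methods call the libraries of a group biological replicates, without saying whether they came from separate culture preparations, and p-values measure the spread between them.

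Prox1 encodes a homeodomain transcription factor of the prospero family. In the brain it is known for specifying and maintaining the granule cell identity of the dentate gyrus, and it is also found in interneurons of caudal origin and in the oligodendrocyte lineage. Outside neurons it is the master regulator of lymphatic endothelium. A distal enhancer can act on a gene over long distances, and RNA made at an active enhancer often rises and falls with the RNA of its target.

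Depth was inferred from the deposited TAPE levels. It was between 46.4 and 72.5 M reads a library and overlapped between regions, with means of 62.7 M in cortex, 57.3 M in hippocampus and 54.5 M in striatum. These inferred totals lie above the range of reads per sample that the paper states. TAPE levels are given as CPKM, reads per kilobase of TAPE per mega (M) reads of the library,, and every value corresponded to a whole number of reads within 0.01. Values of 2 reads outnumbered values of 1 read in every library (3939 to 4965 against 1041 to 1415 TAPEs), so reads are not independent molecules. The intervals below cover counting error of reads only and are narrower than for independent fragments, and the limit for a group without reads was set at 3 fragments of 2 reads.

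Prox1 lies on the forward strand at chr13:108382399-108443294 (Rn6). In the order of the paired genes along the chromosome, the 20 TAPEs fell into 4 gaps between genes. There were 7 between Kctd3 and Kcnk2, 3 between Kcnk2 and Cenpf, 2 between Cenpf and Prox1, and 8 between Ptpn14 and Rps6kc1, downstream of the gene. Their lengths ran from 1315 to 4394 bp (median 2003 bp). RNA was sparse, with 5 to 194 reads per TAPE over all 19 libraries and a median of 14, the same median as over all TAPEs. The nearest TAPE held 39.6% of the 490 reads of the 20.

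Of the 4 gaps, 2 had their highest level in hippocampus. Between Cenpf and Prox1 the pooled level was 0.163 CPKM in hippocampus, 0.0206 in cortex and 0.00601 in striatum. Between Ptpn14 and Rps6kc1 it was 0.0106 in hippocampus against 0.00352 in cortex and 0.00291 in striatum. The order turned around upstream. Between Kctd3 and Kcnk2 the pooled level was 0.0109 CPKM in cortex, 0.00861 in striatum and 0.00239 in hippocampus. Between Kcnk2 and Cenpf the 6 hippocampus libraries held no read, against 16 reads in cortex and 8 in striatum. Hippocampus was the highest region at 7 of the 20 TAPEs, 5 of them downstream of the gene. With 3 regions this count has no reading without the share over all TAPEs, which was not computed. The downstream TAPEs at +833962 and +851970 bp held only 4 and 6 hippocampus reads (exact permutation p = 0.222 and 0.309).

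**Figure D1:**
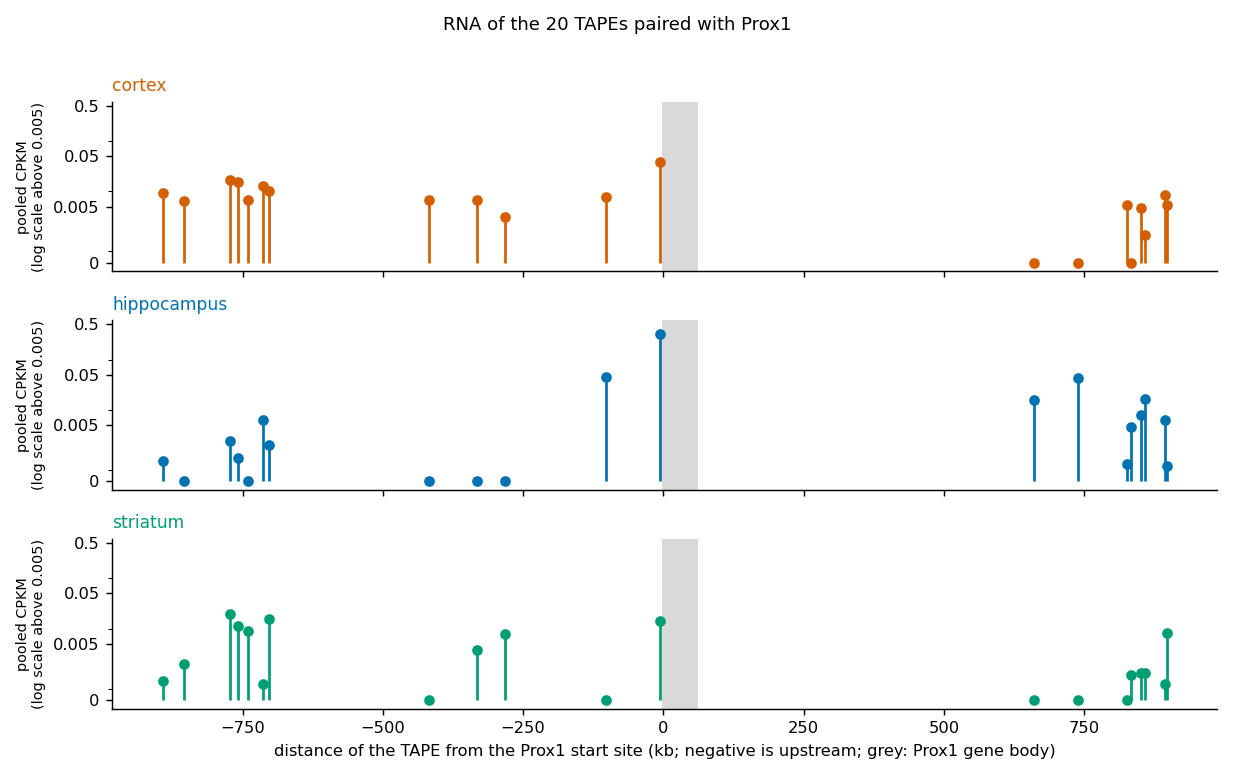
Pooled CPKM of the 20 Prox1 TAPEs in cortex, hippocampus and striatum (rows) against distance from the Prox1 start site in kb, with the gene body in grey and a scale that is linear below 0.005 and logarithmic above. The highest point is the nearest TAPE in hippocampus (0.327 CPKM), and 5 TAPEs, all upstream, sit at 0 in hippocampus.

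The nearest TAPE, 5217 bp upstream of the start (chr13:108376448-108377915, 1468 bp, intergenic), carried the strongest hippocampal signal. In hippocampus with vehicle its level was 0.361, 0.258 and 0.345 CPKM, and with KCl it was 0.369, 0.288 and 0.340 CPKM. In cortex it was 0, 0.0564 and 0 CPKM with vehicle and 0, 0.103 and 0.0598 CPKM with KCl. In striatum it was 0, 0, 0 and 0.0235 CPKM with vehicle and 0.0257, 0.0251 and 0.0261 CPKM with KCl. All 6 hippocampus libraries lay above all 13 others, with no overlap, and cortex and striatum overlapped each other.

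Pooled over libraries, the nearest TAPE was 8.61-fold higher in hippocampus than in cortex (165 against 21 reads, exact 95% interval 5.45 to 14.3) and 22.9-fold higher than in striatum (8 reads, 11.4 to 53.9). On the log2(CPKM + 0.05) scale the limma difference was 2.27 (SE 0.26) against cortex and 2.57 (SE 0.25) against striatum. It was called region-dependent and hippocampus-selective, against 48.8% and 6.74% of the 1870 TAPEs tested. It was the 1 Prox1 TAPE that reached a mean of 0.05 CPKM, the minimum for the limma test, and it did so through its hippocampus libraries alone. Its values were therefore also compared without a filter. Over all 27538 TAPEs, an exact two-sided permutation test of CPKM (6 hippocampus against 13 other libraries) gave p = 3.686e-05, the smallest that 27132 arrangements allow, and an adjusted p of 0.00746. With no overlap, 0.454% of all TAPEs had every hippocampus library above every other.

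The second TAPE of the same gap, 101409 bp upstream (chr13:108279981-108281999, 2019 bp), had the same pattern at a lower level. In hippocampus it measured 0.0350, 0.0171 and 0.0449 CPKM with vehicle and 0.0693, 0.0349 and 0.0660 CPKM with KCl. In cortex it measured 0.0159, 0.0137 and 0 CPKM with vehicle and 0, 0.0167 and 0 CPKM with KCl. Striatum held no read in 7 libraries, which allows a pooled level of up to 0.00779 CPKM (6 reads). Here too every hippocampus library lay above every other, although the lowest of them, 2 reads in vehicle replicate 2, was close to the highest cortex library. The pooled level in hippocampus was 5.66-fold that of cortex (31 against 6 reads, exact 95% interval 2.33 to 16.6) and at least 5.74-fold higher than in striatum (floor of 6 reads over the group). The exact permutation test gave p = 3.686e-05 (adjusted p = 0.00746), again the smallest possible.

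Downstream of the gene, 2 TAPEs had reads in hippocampus only. The TAPE at +738806 bp (chr13:109120213-109122196, 1984 bp) measured 0.0178, 0.130 and 0.0183 CPKM in hippocampus with vehicle and 0.0176, 0.0711 and 0 CPKM with KCl. Cortex and striatum held no read, which allows pooled levels of up to 0.00803 and 0.00792 CPKM. Of its 29 reads, 15 came from vehicle replicate 2 and 8 from KCl replicate 2, so the libraries of hippocampus differed widely among themselves. The difference gave an adjusted p of 0.037 (exact permutation) and the pooled level was at least 5.29-fold higher than in cortex and at least 5.37-fold higher than in striatum. The difference of 0.0425 CPKM stayed positive with any library left out (0.0250 without vehicle replicate 2, up to 0.0510), but the adjusted p rose above 0.05 (0.0811 to 0.0870) without any of the 5 hippocampus libraries that held reads, vehicle replicates 1, 2 and 3 and KCl replicates 1 and 2.

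The TAPE at +659925 bp (chr13:109041331-109043317, 1987 bp) measured 0.0534, 0.00867 and 0.0182 CPKM in hippocampus with vehicle and 0, 0 and 0.0168 CPKM with KCl. No read was found in the other 13 libraries. With 11 reads in all it did not pass (exact permutation p = 0.00387, adjusted p = 0.113). Reads in 4 or more hippocampus libraries and none elsewhere occurred at 0.363% of all TAPEs. The TAPE at +858940 bp (chr13:109240264-109242414, 2151 bp) had 12 reads in hippocampus, 2 in cortex and 2 in striatum, and its hippocampus libraries ran from 0 to 0.0505 CPKM and overlapped the others (exact permutation p = 0.0312, adjusted p = 0.328).

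**Figure D2:**
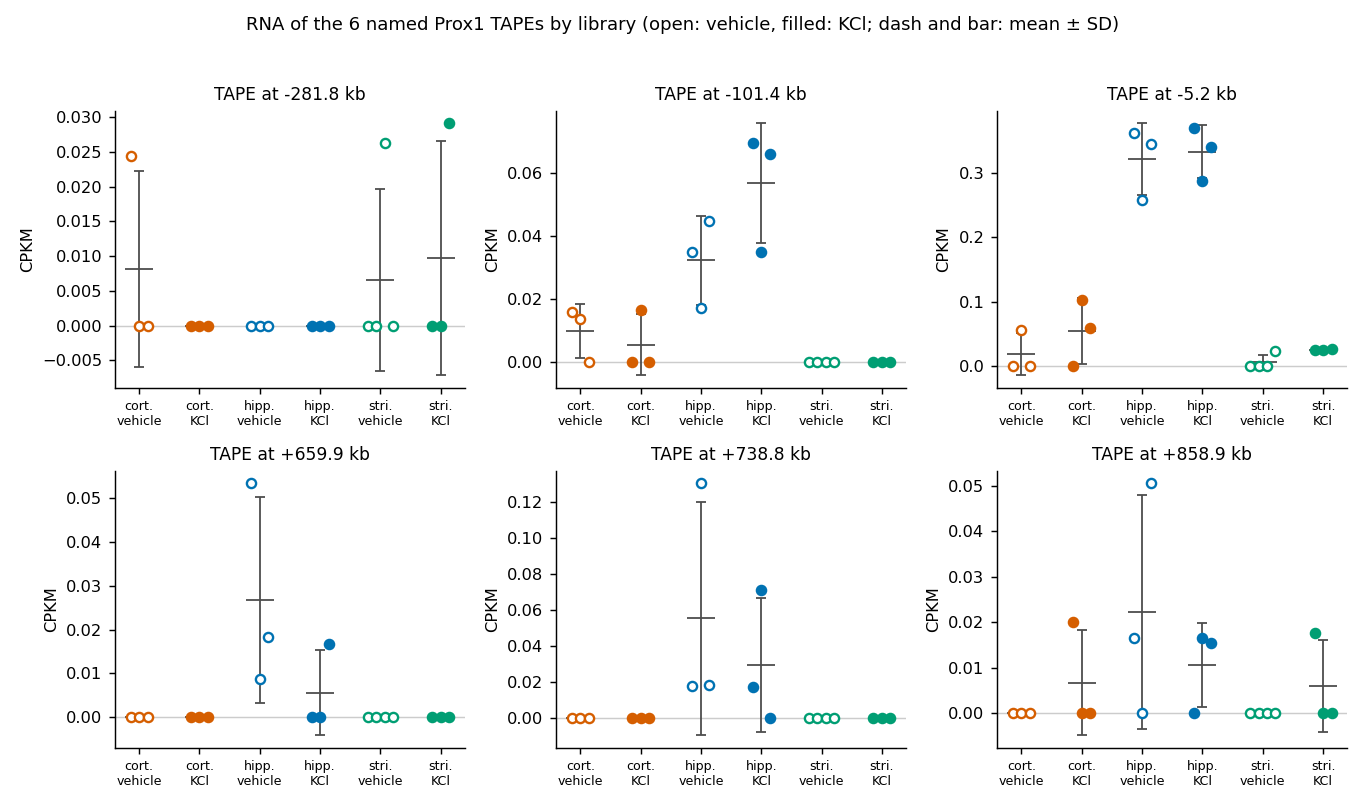
CPKM of 6 Prox1 TAPEs (panels, by distance from the start in kb) in every library, grouped by region and treatment, with open points for vehicle, filled points for KCl and the mean ± SD of the group as a dash and bar; the vertical scales differ. The hippocampus points stand above all others at -5.2 and -101.4 kb and are the only points above 0 at +659.9 and +738.8 kb.

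Over the 20 TAPEs, 3 were higher in hippocampus in the exact permutation test over all TAPEs, against 1.52% of the 27538, and none was lower. At an unadjusted p under 0.05, 5 were higher (8.31% of all TAPEs) and 1 was lower. limma with no filter called the same 3 TAPEs, at -5217, -101409 and +738806 bp, hippocampus-selective, against 1.97% of all TAPEs (7.36% were region-dependent). The TAPE lower at an unadjusted p was the one at -771918 bp, which held 18 reads in striatum, 15 in cortex and 3 in hippocampus (exact permutation p = 0.00741, adjusted p = 0.169). The third nearest TAPE, 281772 bp upstream (chr13:108099970-108101284), held no read in hippocampus, 2 in cortex and 4 in striatum. With the hippocampus libraries empty, a level of up to 0.0133 CPKM remained possible there, so a deficit was not detectable at this depth. The 14 TAPEs outside the 6 shown by library, including that at -771918 bp, held 5 to 36 reads each.

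The level of Prox1 itself was recovered from the table. The files hold no gene level per library, but they hold the correlation of each gene with every TAPE around it, over all libraries and inside each region, and these equations fix the standardized profile of a gene over the 19 libraries. For Prox1 the solved profile returned all deposited correlations to within 7.02e-14. The profile has a mean of 0 and an SD of 1 on a linear CPKM scale whose zero is not known, so it gives differences in SD units and no fold. Scaling to an SD of 1 also caps a difference between regions, so a large value shows clean separation and not a large change.

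Prox1 RNA was a hippocampal readout in these cultures. It measured 1.40, 1.47 and 1.46 SD units in hippocampus with vehicle and 1.45, 1.40 and 1.40 with KCl. Cortex lay at -0.673, -0.670 and -0.660 with vehicle and -0.518, -0.547 and -0.546 with KCl. Striatum lay at -0.738, -0.742, -0.726 and -0.736 with vehicle and -0.681, -0.668 and -0.673 with KCl. Hippocampus stood apart from both other cultures without overlap, a pattern shared by 10.9% of genes. Hippocampus exceeded the other libraries by 2.09 SD units (exact permutation p = 3.686e-05, the smallest possible, adjusted p = 0.000266 over 16180 genes). Cortex exceeded striatum by 0.107 SD units (exact permutation p = 0.00291). Of the variance of Prox1, 99.8% lay between regions, which ranked 29 of 16180 genes (median gene 64.1%).

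**Figure D3:**
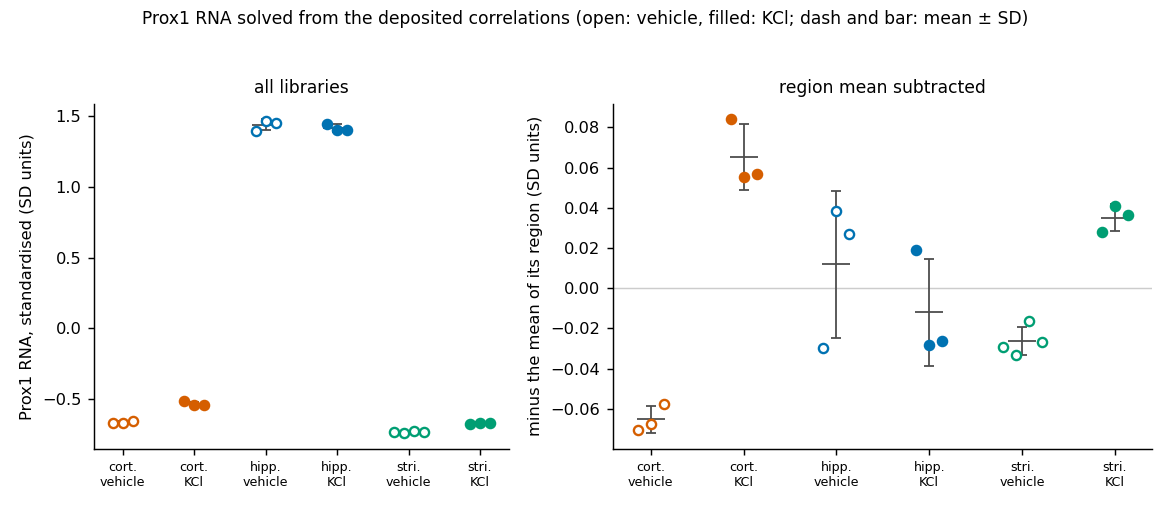
Prox1 RNA in SD units by library (left) and after subtraction of the mean of its region (right), with open points for vehicle, filled points for KCl and the mean ± SD of each group. Hippocampus lies 2.09 SD units above the other libraries, and at the finer scale the KCl points lie above the vehicle points in cortex and striatum and overlap them in hippocampus.

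KCl moved Prox1 little next to the regional difference. In cortex the 3 KCl libraries lay above the 3 vehicle libraries, by 0.13 SD units on average (exact permutation p = 0.1, the smallest this design allows). In striatum the KCl libraries also lay above the vehicle libraries, by 0.0615 SD units (exact permutation p = 0.0286, again the smallest possible). In hippocampus the treatments overlapped, with a difference of -0.0238 (exact permutation p = 0.4). Over the 3 regions the mean difference was 0.0560 SD units, with an adjusted p of 0.0658 in the exact permutation test stratified by region, and Prox1 was not called, against 6.24% of genes called higher and 15.5% called lower. KCl above vehicle without overlap was found for 7.93% of genes in cortex, 7.68% in striatum and 3.6% in both. The median gene moved down with KCl, by -0.114 SD units in cortex, -0.107 in hippocampus and -0.146 in striatum.

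The RNA of the nearest TAPE was not called for KCl in any region. Its limma log2 change was 0.55 (SE 0.41, adjusted p = 0.669) in cortex, 0.05 (SE 0.19, adjusted p = 0.934) in hippocampus and 0.46 (SE 0.20, adjusted p = 0.298) in striatum. The 3 striatal KCl libraries held 2 reads each, while 1 of 4 vehicle libraries held 2 reads and the others none. The cortical change ran from 0.20 to 1.01 with 1 library left out, without KCl replicate 2 and without KCl replicate 1. With a pseudocount of 0.01 or 0.5 it was 1.19 or 0.09 in cortex and 1.40 or 0.06 in striatum, never called. For comparison, KCl called 0.321% of the cortical values, 0.0535% of the hippocampal and 1.23% of the striatal. At an unadjusted p under 0.05 the shares were 10.4%, 13.3% and 15.1%. The interaction of region and treatment had an adjusted p of 0.927 at the nearest TAPE (limma), with 0.0535% of TAPEs called. The TAPE at -101409 bp averaged 0.0568 ± 0.0190 CPKM (SD, n = 3) with KCl and 0.0323 ± 0.0141 (SD, n = 3) with vehicle in hippocampus, and the ranges overlapped. With no filter, limma called no Prox1 TAPE for KCl in any region.

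Over all 19 libraries, the correlation of the Prox1 TAPEs with Prox1 followed their hippocampal selectivity. Pearson r was 0.975 at -5217 bp, 0.854 at -101409 bp, 0.620 at +738806 bp, 0.588 at +659925 bp and 0.507 at +858940 bp. The next highest value was 0.282, at +833962 bp. Of the 20 TAPEs, 5 had an r above 0.5, against 7.31% of all TAPEs and 12.2% of the TAPEs with a mean of at least 0.05 CPKM. The count was 4 in 15 of the 19 runs that left out 1 library, as r at +858940 bp fell below 0.5, to 0.401 without hippocampus vehicle replicate 3. These values carry no p, because the libraries fall into 3 clusters by region and Prox1 separates 1 cluster from the others. At the nearest TAPE Spearman's rho was 0.779, and r was 0.517 without the 6 hippocampus libraries.

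Of the 10 TAPEs between Kctd3 and Cenpf, 9 had a negative r with Prox1, from -0.617 at -771918 bp, and the remaining TAPE had an r of 0.0107. The share of negative values over all TAPEs was not computed. At 5 of the 10 TAPEs hippocampus held no read, which by itself pulls r with a gene highest in hippocampus below 0. None of the 10 was lower in hippocampus at an adjusted p under 0.05 (exact permutation, lowest adjusted p = 0.169). Kcnk2, which encodes a background potassium channel, was lower in hippocampus (-2.01 SD units, exact permutation, adjusted p = 0.000266). Of these 10 TAPEs, 9 had a positive r with it, up to 0.616. Over all libraries Kcnk2 itself had an r of -0.971 with Prox1, so these signs largely mirror those with Prox1 and are not a separate result. Kcnk2 was the best correlated gene for 4 of the 20 TAPEs, as was Prox1. The TAPEs with Prox1 as best gene lay at -5217, -101409, +738806 and +858940 bp. At +659925 bp the best gene was LOC498308 (r = 0.899), with Prox1 in rank 4 of 16 genes.

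Closeness and correlation pointed to Prox1 together at 2 TAPEs. At -5217 and -101409 bp Prox1 was both the nearest and the best correlated of 7 genes. For the TAPEs at +738806 and +858940 bp the nearest genes were Ptpn14, a tyrosine phosphatase (r = 0.233), and Rps6kc1 (r = -0.470), and Prox1 came 13th of 17 and last of 16 genes by distance. Among all TAPEs in the table, the one at -5217 bp ranked 2 of 27538 by r with Prox1, and the one at -101409 bp ranked 94. Among all genes, Prox1 ranked 12 of 16180 by r with the nearest TAPE, so other genes anywhere in the genome followed that TAPE as closely.

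Inside regions the correlations were different. After subtraction of the region means, r with Prox1 ran from -0.428 to 0.312 over the 20 TAPEs, with 0 above 0.5. At the nearest TAPE r fell from 0.975 to 0.206 (permutation p = 0.507), with 0.0568 to 0.401 when 1 library was left out and -0.317 when the means of region and treatment were subtracted. At -101409 bp it went from 0.854 to -0.181 (permutation p = 0.389), with -0.291 to -0.0606 when 1 library was left out. The smallest of the 20 permutation p-values was 0.182. Inside regions the nearest TAPE held few reads per library (22 to 31 in hippocampus, 0 to 9 in cortex, 0 to 2 in striatum). Prox1 also varied little there, so a relation may not have been detectable at this depth. Of the r of 0.975 over all libraries, 0.973 came from differences between region means and 0.00212 from differences within regions. At -101409 bp the between-region part was 0.858 and the within-region part -0.00416. With 99.8% of the variance of Prox1 between regions, the within-region part was bound to be small at any TAPE. This split therefore does not show whether a TAPE followed Prox1 inside regions. The share of the TAPE's own variance that lay between regions was 94.9% at -5217 bp, 74.9% at -101409 bp, 37.9% at +738806 bp, 35.3% at +659925 bp and 24.8% at +858940 bp.

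**Figure D4:**
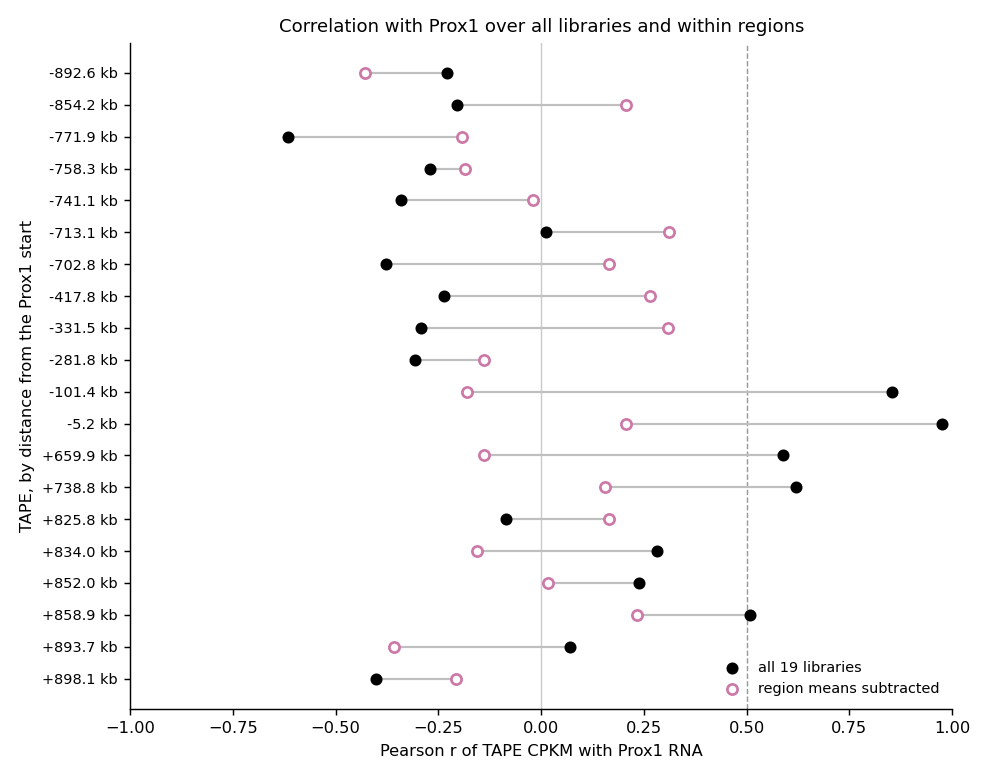
Pearson r of each of the 20 TAPEs with Prox1 over all 19 libraries (black) and after subtraction of region means (open), ordered by distance from the Prox1 start in kb, with a dashed line at 0.5. Black points above 0.5 are found at 5 TAPEs, and every open point lies between -0.428 and 0.312.

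The separate regions differed from each other at the nearest TAPE. Its r with Prox1 was 0.336 in cortex (6 libraries, exact permutation p = 0.617), -0.236 in hippocampus (6 libraries, exact permutation p = 0.540) and 0.767 in striatum (7 libraries, exact permutation p = 0.0619). In striatum the value contrasted 4 libraries with 2 reads and 3 without any. Every KCl library was among the 4, the 3 were all vehicle, and Prox1 was also higher with KCl there. The value thus largely repeats the treatment contrast. With 1 library left out the exact permutation p in striatum ran from 0.0444 to 0.161, and it passed the threshold only without vehicle replicate 6. In hippocampus, where this TAPE had 22 to 31 reads per library, its CPKM ran from 0.258 to 0.369 while Prox1 ran from 1.40 to 1.47 SD units. The library with the highest Prox1, vehicle replicate 2, had the lowest TAPE level, and without it the hippocampal r was 0.437. Of 47 relations between a Prox1 TAPE and Prox1 inside a region, 0 had an unadjusted exact p under 0.05. An r above 0.5 was found at 1 of 17 TAPEs with reads in cortex, 2 of 15 in hippocampus and 3 of 15 in striatum. The share over all TAPEs inside a region was not computed, so these counts have no reading of their own.

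**Figure D5:**
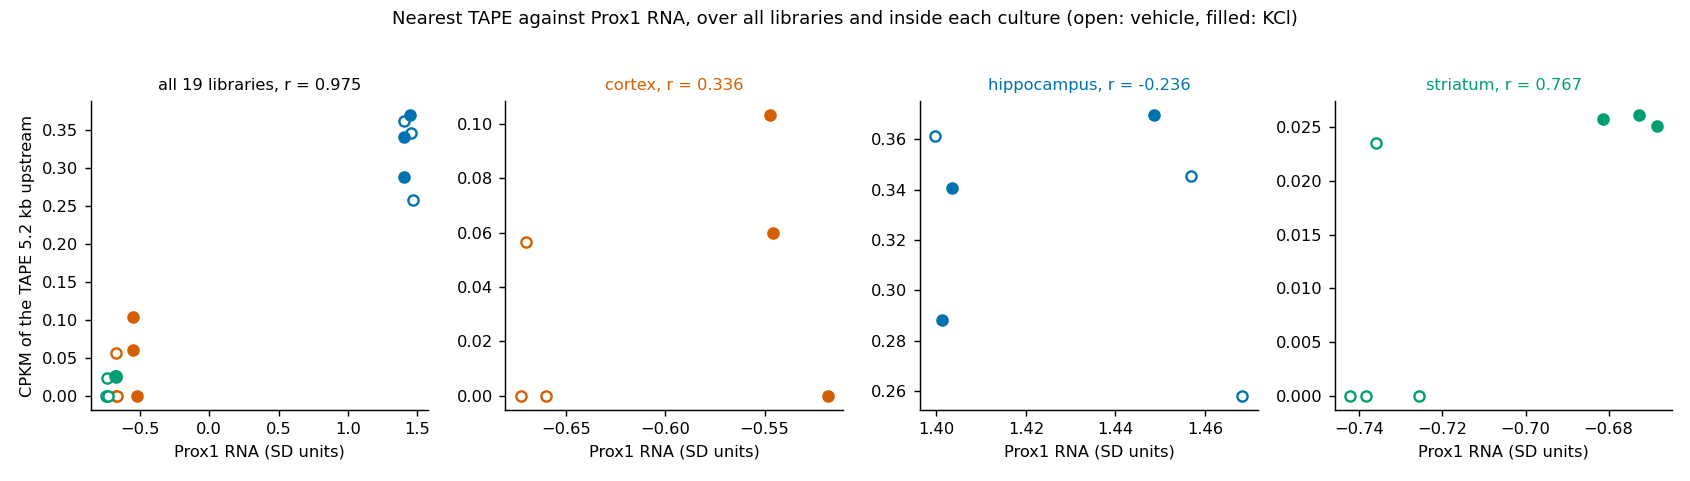
CPKM of the TAPE at -5.2 kb against Prox1 RNA in SD units over all 19 libraries (left) and inside cortex, hippocampus and striatum, with open points for vehicle, filled points for KCl and axes that differ between panels. All libraries form 1 hippocampal cloud above the others (r = 0.975), while inside the regions r is 0.336, -0.236 and 0.767.

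Other genes with the profile of Prox1 were many. The 5 genes most like it over 19 libraries were Gfap, the intermediate filament protein of astrocytes (r = 0.999), Hpca, the neuronal calcium sensor hippocalcin (r = 0.998), the actin-severing protein gene Gsn (r = 0.998), Tmem71 (r = 0.998) and the actin cross-linker gene Flnc (r = 0.998). Of 16180 genes, 79 had an r above 0.99. After subtraction of region means the leading genes were others, namely Klhl15 (r = 0.939), Tbc1d9 (r = 0.935), LOC108349594 (r = 0.925), the zinc finger factor gene Klf10 (r = 0.919) and the hedgehog receptor gene Ptch1 (r = 0.915). Each of these 5 had KCl above vehicle without overlap in cortex and in striatum, as did Prox1 and 3.6% of all genes. They were chosen by likeness to a profile that holds this KCl shift, so the shared pattern follows from the choice.

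Genes of the dentate gyrus were mixed in direction. In the exact permutation test of hippocampus against the other cultures, which called 22% of genes higher and 20% lower, 10 of 23 measured dentate and hippocampal transcription factors were higher, 4 were lower and 9 were not called. After Prox1 the leading ones were Lhx9 (2.07 SD units), the neuronal differentiation factor Neurod1 (2.03) and Mef2c, an activity-regulated factor that was lower (-2.04), each with an adjusted p of 0.000266. Of 18 dentate granule cell markers, 6 were higher, 3 lower and 9 not called. The synaptic organizer gene C1ql2 (1.92 SD units), the semaphorin gene Sema5a (2.07) and the cation channel gene Trpc6 (2.05) were higher, while Ntng1 (-2.07), which encodes netrin-G1, was lower. The granule cell genes Calb1 (0.66, adjusted p = 0.293), Tdo2 (1.04, adjusted p = 0.0806) and Lct (0.76, adjusted p = 0.214) were not called in the exact permutation test. In the smaller set of 6 granule cell markers (C1ql2, Dsp, Tdo2, Calb1, Lct and Prox1 itself) 3 were higher, 0 lower and 3 not called.

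Genes of CA pyramidal cells went both ways in the same test, which called 22% of all genes higher and 20% lower. Of 15, 6 were higher, among them the kainate receptor subunit gene Grik4 (2.04 SD units), Grp (1.96) and Spock1 (1.93), 6 were lower, among them Bok (-2.01), and 3 were not called. Of 14 cortex markers 1 was higher and 5 lower (Tle4 at -1.97, Lmo3 at -1.94, Cux2 at -1.73 and Foxp1 at -1.57 SD units), with 8 not called. Of 22 striatum markers 0 were higher and 10 lower, among them the dopamine receptor gene Drd1 (-1.57), Mn1 (-1.69), Meis2 (-1.51) and Pde10a (-1.51), with 12 not called. Of the striatum markers 21 of 22 had their highest mean in striatum, with Tac1 as the exception, and of the cortex markers 11 of 14 had theirs in cortex, with Lhx5, Lmo3 and Foxp1 as exceptions. The third cortex vehicle library, whose tissue entry names striatum, lay below every striatum library at 20 of the 22 striatum markers, as did each of the other cortex vehicle libraries.

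Among partners and targets of Prox1 in Notch, Wnt and cell cycle control, 9 of 24 were higher in hippocampus, 5 lower and 10 not called. Over all genes 22% were called higher and 20% lower. The cyclin genes Ccnd1 (2.07 SD units) and Ccnd2 (2.04), the cyclin-dependent kinase inhibitor gene Cdkn1a (2.08) and the Notch ligand gene Jag1 (2.04) led, each with an adjusted p of 0.000266 (exact permutation). The inhibitor gene Cdkn1c (-1.20 SD units) and the Notch target gene Hes5 (-1.32) were lower. The median over this list was 0.30 SD units and over all genes -0.14.

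Markers of other cells known to express Prox1, or known to differ between cultures, were read in the same test. The counts below stand against 22% of all genes called higher and 20% called lower. Of 14 astrocyte genes 5 were higher and 0 lower (Gfap at 2.09, Agt at 1.85, Aqp4 at 1.48 and Slc1a2 at 1.45 SD units), while Aldh1l1 measured -1.01 (exact permutation, adjusted p = 0.0949). Of 12 endothelial genes 6 were higher (Nrp2 at 2.08, Kdr at 2.07, Flt1 at 2.04 and Pdpn at 1.97 SD units) and 0 lower. The defining endothelial genes Cdh5 (-0.49 SD units), Cldn5 (0.70) and Flt4, of lymphatic endothelium (-0.90), were not called, and Lyve1 was higher (1.25). Of 11 interneuron genes 3 were higher (Calb2 at 2.07, Npas1 at 1.94 and Htr3a at 1.58 SD units) and 3 lower, including Sst (-1.36). Sst is not a marker of caudal origin, so this list is not a measure of caudal interneurons alone. Of 15 oligodendrocyte lineage genes 3 were higher (Cspg4 at 1.79, Sox10 at 1.73 and Olig1 at 1.66 SD units) and 4 lower, including Mag (-1.93) and Mbp (-1.39). Of 10 microglial genes 1 was higher, Cx3cr1 (1.41). The profiles give no zero, so levels of these markers cannot be summed, and their part in the Prox1 difference was not tested.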

How the data were processed

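TAPE levels were used as deposited, in CPKM, which is an RPKM value. Per the authors' methods, reads were trimmed with Trim Galore 0.4.5, aligned with STAR to Rn6 and counted per TAPE on both strands with duplicates kept. The correlation scores deposited by the authors (Pearson r of TAPE and gene CPKM) gave the gene profiles, solved for 16180 of 17715 symbols (91.3%), with 1535 paired with too few TAPEs. No gene value was taken from the authors' own comparisons.

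limma 3.58.1 (R 4.3.3) was run on log2(CPKM + 0.05) with a mean-variance trend for the 1870 TAPEs with a mean of at least 0.05 CPKM, with Benjamini-Hochberg adjustment over all of them. Simulated data with 200 of these 1870 TAPEs raised 4-fold in hippocampus, with the same dispersion at every TAPE, gave 100% recovery. TAPEs below the minimum were not simulated, so this gives no power for the other Prox1 TAPEs. Because 1 Prox1 TAPE passed the filter, an exact permutation test over all TAPEs was added after the data were examined. Gene profiles were compared by exact permutation (Python 3.11.15, SciPy 1.17.1). Within-region correlations used 100000 permutations inside regions. Sequence was not analysed here.

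The text names TAPEs with a mean of at least 0.05 CPKM, an r above 0.5 with Prox1 over all libraries, or among the 3 nearest; the 5 genes most like Prox1 over all libraries and within regions; and up to 4 called genes per list by smallest p. Markers of cell types and genes beside a result were named in addition. Members and lists were chosen with earlier results of these data known.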

Additional observations from a re-analysis of the deposited data

Results flagged for a closer look

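The KCl effect on Prox1 was compared between cultures in a test added after the data were examined and run for Prox1 alone. Treatment labels were rearranged inside each culture, so its null is no KCl effect in either culture. A small p can therefore arise without unequal effects, and whether the effects were unequal was not tested. The KCl effect in cortex exceeded that in hippocampus by 0.154 SD units (exact permutation p = 0.02) and that in striatum exceeded it by 0.0853 (exact permutation p = 0.0157), while cortex and striatum differed by 0.0690 (exact permutation p = 0.261). Adjusted over these 3 comparisons the values were 0.03, 0.03 and 0.261. KCl libraries were higher than every vehicle library in 3 of 3 cortex and 3 of 3 striatum libraries.

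A library far from the others of its group was found in 7 of 18 groups examined (the libraries of a region, and the 4 striatum vehicle libraries, at the 6 named TAPEs and for Prox1). The usual rate of about 1 in 20 holds for continuous values. In 5 of the 7 a single library held reads and the rest none, which meets the criterion by construction, so the number of such groups has no reading against that rate. At -281772 bp these were cortex vehicle replicate 1 (0.0244 CPKM) and, among striatum vehicle libraries, replicate 6 (0.0262 CPKM). At -5217 bp it was striatum vehicle replicate 8 (0.0235 CPKM, against 0 in the other vehicle libraries). At +858940 bp they were cortex KCl replicate 1 (0.0200 CPKM) and striatum KCl replicate 1 (0.0176 CPKM). In hippocampus, vehicle replicate 1 stood above the others at +659925 bp (0.0534 CPKM) and vehicle replicate 3 at +858940 bp (0.0505 CPKM).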

How the results depend on the processing

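Of 819 values recomputed under an alternative, 741 kept their direction and their side of the threshold or stayed close, and 12 changed sign. Region-dependent TAPEs (912) became 2026 with no filter on low TAPEs, 482 with a filter at 0.1 CPKM and 568 with a replicate block. Hippocampus-selective TAPEs (126) became 542 and 70 with those filters. Prox1 TAPEs called region-dependent or hippocampus-selective rose from 1 to 3 with no filter. Replicate numbers did not pair the libraries (correlations of deviations from -0.0418 to 0.0654 over 26 pairs), and with the block the nearest TAPE was called as before (log2 difference 2.27 and 2.61). Its log2 differences against cortex and striatum depended on the pseudocount (3.56 and 4.03 with 0.01, 0.63 and 0.68 with 0.5) and were 3.96 and 4.40 with voom on the reads recovered from CPKM and library totals. That alternative was added after the data were examined, and voom with TMM factors was not run.

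KCl calls in cortex (6) became 0 with no filter, 10 with median-centred libraries, 12 in one fit of 6 groups and 3 with the block, and 3 to 5 with a library left out. In hippocampus (1) they became 0, 4, 19 and 0 in the same order, 9 with the 0.1 filter and 0 to 0 with a library left out. In striatum (23) they became 2 with no filter and 0 to 8 with a library left out. The interaction (1) gave 13 with a pseudocount of 0.5, 2 with no filter and 3 with the 0.1 filter. Genes higher in hippocampus (3564) were 2159 in vehicle libraries alone.

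The r of 0.975 at the nearest TAPE became 0.779 as Spearman's rho, 0.940 on the log2 scale and 0.517 without hippocampus. TAPEs with an r above 0.5 (5) were 2 at a threshold of 0.7. With group means subtracted, within-region r turned to -0.317 at -5217 bp, 0.0637 at -281772 bp and -0.0529 at +858940 bp. Without the 2 libraries farthest from the median, the cortical r at the nearest TAPE was -0.354, the hippocampal 0.164 and the striatal 0.684. The KCl difference of Prox1 was -0.0238 in hippocampus alone. With a library left out, signs turned for the hippocampal KCl change at the nearest TAPE (-0.0814 to 0.134), its r inside hippocampus (-0.527 to 0.437), and within-region r at -281772 bp (-0.320 to 0.107), +659925 bp (-0.225 to 0.0384) and +738806 bp (-0.0749 to 0.211). Inside striatum it ran from 0.707 to 0.978. The causes were not tested. In vehicle libraries alone no Prox1 TAPE passed the permutation test (adjusted p = 0.368, limited by 3 hippocampus libraries). At 5 to 36 reads per TAPE, differences at most Prox1 TAPEs were not detectable at this depth.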
